A study of Homo sapiens with 2 samples.

Results

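The miR-506 to miR-514 cluster is a run of 15 microRNA hairpins on the long arm of the human X chromosome. Its members were taken from the deposited count table by name, as every entry of the 10 stems hsa-miR-506, hsa-miR-507, hsa-miR-508, hsa-miR-509, hsa-miR-510, hsa-miR-513a, hsa-miR-513b, hsa-miR-513c, hsa-miR-514a and hsa-miR-514b, where hsa stands for human. The rule found 20 of the 2904 entries. None of the 45 entries that join several names, and none of the 339 entries with a p- prefix, carried a name of the cluster. The cluster itself was chosen by its counts in the control and the manganese library, which were already known from earlier work on these files, so its difference between them is a description and supports nothing by itself.

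The libraries came from BEAS-2B cells, a wild-type line of human bronchial epithelium that was immortalised with viral genes. One culture received vehicle and the other manganese, a trace nutrient that harms cells at high levels, each for 24 h, and each of these 2 groups is represented by 1 library. All cells grew in a DMEM and F-12 medium with fetal bovine serum. Neither the vehicle nor the manganese dose is stated in the labels. A difference between the libraries therefore has no replicate check, and it compares 2 libraries rather than 2 conditions.

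As background, a microRNA hairpin is cut into a 5p and a 3p arm, and the arm that is kept guides a silencing complex to messages that pair with its seed, bases 2 to 8. The miR-506 family is known for its expression in testis, for its rapid sequence change between mammals and for many tandem copies. In mouse, its members are expressed in germ cells and act in sperm production. In human tumours, the cluster has been described in melanoma, where miR-514a was reported to target NF1, and miR-508-3p and miR-509-3p were reported as growth-restraining in kidney cancer.

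The hairpins lie at chrX:147189704-147284728 of GRCh38, a span of 95.03 kb, and all 15 are on the minus strand. The nearest protein-coding genes are CXorf51A, 375 kb to the left, and FMR1, the gene of fragile X syndrome, 627 kb to the right. Of the 15 hairpins, 11 lie within AL589669.1, a long non-coding RNA gene of the opposite strand, and 0 overlap an exon of it. In the direction of transcription the order is miR-514a (3 copies), miR-510, miR-509 (3 copies), miR-514b, miR-508, miR-507, miR-506, miR-513a (2 copies), miR-513b and miR-513c. Counts from copies with the same mature sequence cannot be separated.

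Mature sequences were found in RefSeq (GRCh38.p14) for 18 of the 20 entries, at 18 to 23 bases, and they held 15 seeds. Shown with the seed in capitals are the 7 arms with the most counts, since they carry most counts of the cluster, and miR-514b-5p, since it shares a seed with one of them.
miR-508-3p: uGAUUGUAgccuuuuggaguaga
miR-509-3p: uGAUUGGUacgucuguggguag
miR-514a-3p: aUUGACACuucugugaguaga
miR-513c-5p: uUCUCAAGgaggugucguuuau
miR-513b-5p: uUCACAAGgaggugucauuuau
miR-514b-5p: uUCUCAAGagggaggcaaucau
miR-509-5p: uACUGCAGacaguggcaauca
miR-509-3-5p: uACUGCAGacguggcaaucaug
Only 3 seeds were shared within the cluster, by miR-513c-5p with miR-514b-5p, by miR-509-5p with miR-509-3-5p, and by miR-514a-3p with miR-514b-3p. The close relatives miR-513b-5p and miR-513c-5p differ by 2 substitutions, as do miR-514a-3p and miR-514b-3p. The arms miR-509-5p and miR-509-3-5p are 3 edits apart. The labels do not say how reads were divided between such neighbours, so their separate counts are uncertain.

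The most abundant hairpin, MIR508, lies at chrX:147236913-147237027 on the minus strand. Its RefSeq sequence is shown with the 5p and then the 3p arm in capitals, to place both arms, of which the 3p arm carries most counts.
MIR508: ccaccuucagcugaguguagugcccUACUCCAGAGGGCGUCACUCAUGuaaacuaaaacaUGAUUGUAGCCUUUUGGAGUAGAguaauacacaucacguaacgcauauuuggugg

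The cluster was rare in these bronchial cells and rarer in the manganese library. Its 20 entries together had 171 control counts and 82 manganese counts. These are 0.0161% (exact Clopper-Pearson 95% interval 0.0138 to 0.0187) of the 1064179 control counts and 0.00752% (0.00598 to 0.00933) of the 1091070 manganese counts. After scaling with TMM factors, which set library sizes by the bulk of entries, the levels were 158 and 76.6 CPM (counts relative to scaled library size), 2.06-fold lower with manganese (95% counting interval 1.57 to 2.71). Intervals cover counting error only, with no variation between cultures. The 2-fold size was not kept under every choice, since the difference was 1.81-fold when library totals omitted the 5 most abundant entries and 1.89-fold without miR-513c. By plain library totals it was 2.14-fold. The choice of totals matters because miR-486-5p, outside the cluster, held 9597 control and 174822 manganese counts. These counts lower the manganese percentage of every other entry, and the percentages above are not corrected for them. A scaling that omits miR-486-5p alone was not run. Fewer cells expressing the cluster and less RNA per cell cannot be told apart in bulk libraries.

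Counts were found for 14 of the 20 entries, 11 in the control and 11 with manganese, of which 8 were in both. There were 10 entries with more counts in the control and 4 with more in the manganese library. Only 6 entries reached 20 counts over both libraries, the minimum for calling an entry measured, which 403 entries of the table did. Of these 6, 3 were lower with manganese by a rule of size, at least 2-fold with an interval that excludes 1-fold, and 0 were higher. The same rule called 6.45% of all measured entries lower and 12.9% higher. All 6 had a fold below 1, as did 55.1% of all measured entries. The median log2 fold of the 6 was −1.05, beside −0.08 over all measured entries. These shares are given side by side only, since the counts were known when the cluster was chosen.

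**Figure D1:**
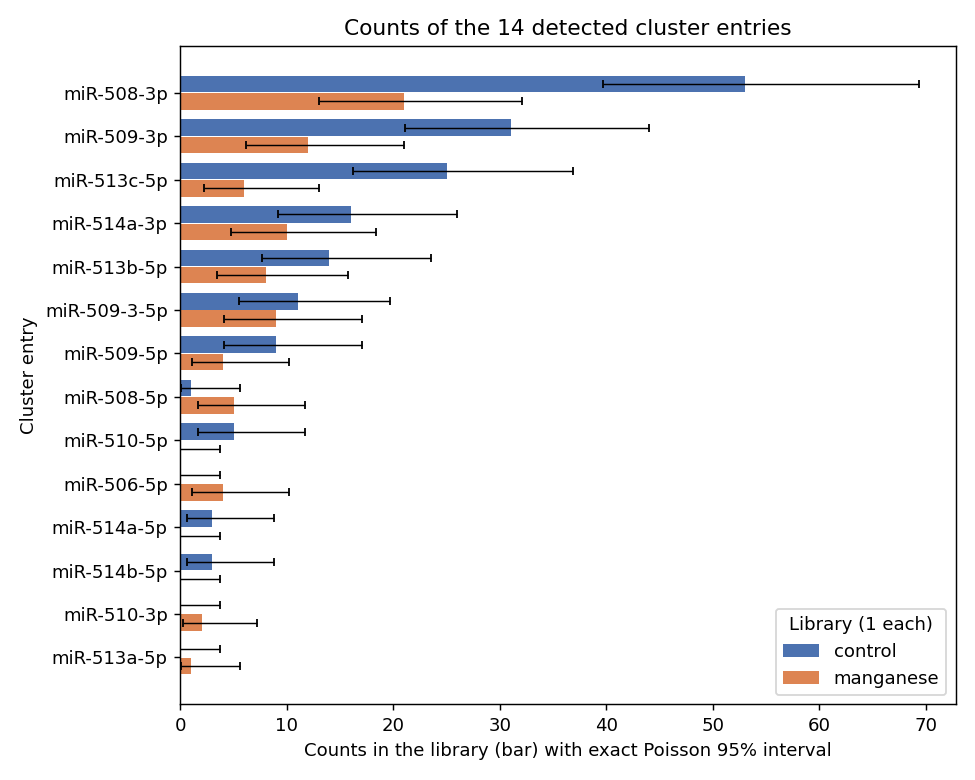
Counts of the 14 cluster entries with at least 1 count, on the x axis, in the control and the manganese library, with exact Poisson 95% intervals that cover counting error only. The control bar is longer for 10 entries, and the intervals of the 2 libraries stand clear of each other only for miR-508-3p, miR-509-3p and miR-513c-5p.

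The 3p arms of miR-508 and miR-509 held the largest counts. The control library held 53 counts of miR-508-3p and the manganese library 21, or 48.8 and 19.6 CPM. It ranked 198th among the entries of the control library and 309th in the other, and was 2.49-fold lower with manganese (1.48 to 4.34). For miR-509-3p, whose sequence is made by all 3 copies of miR-509, 31 control and 12 manganese counts were found, 2.55-fold lower (1.27 to 5.44). Both passed the rule of size under all 4 scalings run. The third abundant 3p arm, miR-514a-3p, stood at 16 against 10 counts, and the interval of its fold of 0.634 reached from 0.257 to 1.49 and so includes 1-fold.

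Of the 5p arms, miR-513c-5p showed the largest fold difference among the measured members. Its 25 control counts stood against 6 manganese counts, 4.11-fold lower (1.64 to 12.2). For its near twin miR-513b-5p, 14 and 8 counts gave a fold of 0.580 (0.211 to 1.48). The fold of miR-513c-5p was 0.420 times that of miR-513b-5p, with an interval from 0.0993 to 1.73, so a difference between the pair was not detectable at this depth. The entry that shares the seed of miR-513c-5p, miR-514b-5p, had 3 and 0 counts, and the seed group together had 28 and 6. The 5p arms of miR-509 had low counts, and the intervals of both include 1-fold. There were 11 and 9 counts for miR-509-3-5p, a fold of 0.830 (0.304 to 2.20), and 9 and 4 for miR-509-5p, a fold of 0.451 (0.101 to 1.62).

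The remaining entries had 6 counts or fewer over both libraries. The entry miR-510-5p, reported to promote growth in breast cancer cells, was counted 5 times in the control library and 0 times in the other. Against a floor of 3 manganese counts this is 1.64-fold lower, but its exact counting interval includes 1-fold. The entry miR-514a-5p had 3 and 0 counts, too few for a fold. The 4 entries with more counts in the manganese library were miR-508-5p with 1 and 5, miR-506-5p with 0 and 4, miR-510-3p with 0 and 2, and miR-513a-5p, reported to repress the immune checkpoint ligand CD274, with 0 and 1. The ratio of miR-508-5p was 5.07 with an interval from 0.568 to 240. The 6 entries at 0 in both libraries were miR-506-3p, miR-507, miR-513a-3p, miR-513b-3p, miR-513c-3p and miR-514b-3p. The first of these is the arm reported to restrain epithelial-mesenchymal transition, and miR-507 was reported to target the antioxidant regulator NRF2. A count of 0 allows up to 3 counts, or 2.76 CPM in the control library and 2.80 CPM in the manganese library.

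In the abundant stems other than miR-509 the counts favoured 1 arm. The 3p arm took 53 of 54 control counts of miR-508 and 16 of 19 of miR-514a, while all 25 counts of miR-513c and all 14 of miR-513b were on the 5p arm. For miR-509 the split was nearer to even, with 60.8% (46.1 to 74.2) of control counts on the 3p arm and 48.0% (27.8 to 68.7) of manganese counts. Over the cluster the 3p arm held 58.5% of control counts (50.7 to 66.0) and 54.9% of manganese counts (43.5 to 65.9). These shares rested on miR-508, without which they were 40.2% and 42.9%. The summed 3p arms had 100 and 45 counts, 2.19-fold lower (1.53 to 3.19), and the summed 5p arms 71 and 37, 1.89-fold lower (1.25 to 2.90). The ratio of these folds was 0.864 (0.491 to 1.52), so the arms could not be told apart.

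**Figure D2:**
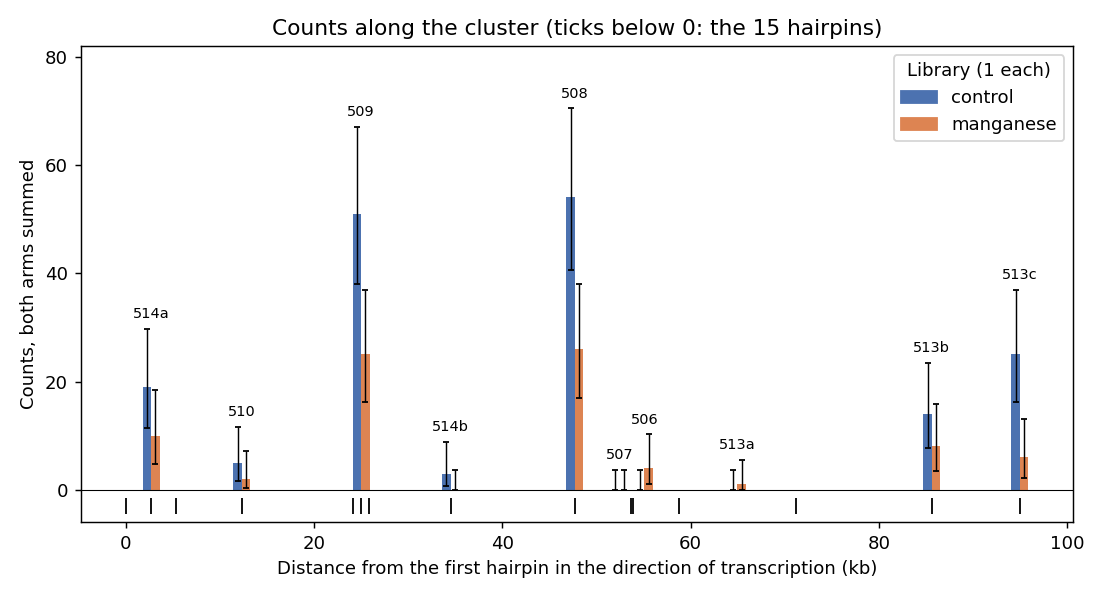
Counts of each stem, both arms and all copies summed, in the control and the manganese library against the distance in kb from the first hairpin in the direction of transcription, with exact Poisson 95% intervals. Bars stand at the mean position of the copies, and those of miR-506 and miR-507 are drawn slightly apart. Counts concentrate at miR-509 and miR-508 in both libraries. Of the stems with counts, only miR-506 and miR-513a have more with manganese.

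Along the cluster, miR-506 (0 and 4 counts) and miR-513a (0 and 1) had more counts with manganese, and every other stem with counts had fewer. Summed over arms and copies, miR-508 had 54 and 26 counts (2.05-fold lower, 1.26 to 3.41) and miR-509 had 51 and 25 (2.01-fold lower, 1.22 to 3.39). At the start of the cluster miR-514a had 19 and 10, a fold of 0.534 (0.222 to 1.21). At its end miR-513b had 14 and 8 counts, and miR-513c had 25 and 6. The fold of miR-513c, 0.243 (0.0817 to 0.608), was the lowest of the stems with at least 20 counts over both libraries. Between miR-508 and miR-513b, the stems miR-507, miR-506 and miR-513a had 0 control counts. The 9 hairpins from miR-514a to miR-508 gave 132 and 63 counts and the 6 from miR-507 to miR-513c gave 39 and 19, folds of 0.484 and 0.494. This split was chosen after the values were seen, and the ratio of its folds was 0.980 (0.505 to 1.95). The make-up of the cluster was given by the shares of its stems. Of control counts 31.6% (24.7 to 39.1) belonged to miR-508, and of manganese counts 31.7% (21.9 to 42.9), while the share of miR-509 was 29.8% and 30.5%. For miR-513c the share was 14.6% (9.69 to 20.8) and 7.32% (2.73 to 15.2). For miR-506 it was 0%, with an interval up to 2.13%, and 4.88% (1.34 to 12.02). The intervals of all 6 measured members included the fold of the cluster sum. These 6 supplied 150 of its 171 control counts and 66 of its 82 manganese counts, and their intervals are wide. The overlap therefore does not show that the members differed alike.

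As a sum, other X-linked microRNAs were also lower in the manganese library. The 144 entries whose hairpins all lie on chromosome X outside the cluster had 48850 and 33573 counts, a fold of 0.697 (0.688 to 0.707), and most of that sum was miR-221-3p with 36676 and 24381 counts. Among their 40 measured entries, 1 was higher and 2 lower by the rule of size, beside 12.9% higher and 6.45% lower of all measured entries. Lower calls were thus not more frequent among X-linked entries. Their median log2 fold was −0.25, beside −0.08 over all measured entries. The cluster's fold was 0.698 times that of this sum, a ratio that needs no library scaling, with an interval from 0.529 to 0.913. The X-linked clusters of GABRE and of miR-424 and miR-450 had smaller differences, and other X-linked loci are given further below. The counts of miR-224 and miR-452, hosted by GABRE, were 707 and 565 (0.811, 0.725 to 0.907), and those of the miR-424 and miR-450 cluster were 1439 and 1139 (0.803, 0.742 to 0.869). The cluster's fold was 0.600 (0.445 to 0.805) and 0.606 (0.455 to 0.803) times these. Since the cluster was chosen by its counts in these same libraries, these ratios are a description, and their intervals cover counting error alone.

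**Figure D3:**
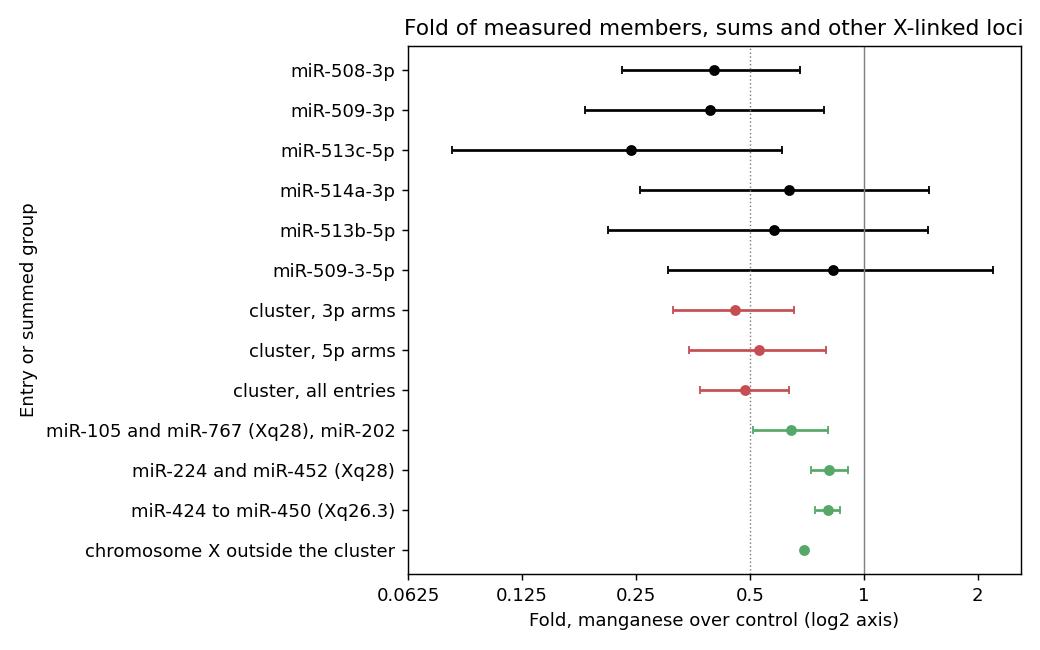
Fold of manganese over control after TMM scaling, on a log2 x axis, with 95% counting intervals. Shown are the 6 measured members, sums of the cluster and sums of other loci. The other loci are X-linked except for miR-202, which is summed with miR-105 and miR-767 and had 0 counts. The solid line marks equality and the dotted line a 2-fold lower level. The cluster sum lies at 0.486 and chromosome X outside the cluster at 0.697.

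Other loci known from the reproductive tract were set beside the cluster. The list of miR-105, miR-767 and miR-202, of which the first pair lies in GABRA3 and is known as a cancer-testis locus, had 204 and 129 counts, a fold of 0.642 (0.511 to 0.804). Most of these belonged to miR-767-5p with 172 and 102, while miR-105-5p had 31 and 27, and miR-202, which is not X-linked, was at 0 in both libraries. The fold of the miR-506 to miR-514 cluster was 0.758 times that of this list (0.529 to 1.08), an interval that includes 1. The epididymal miR-888 cluster, a neighbour on the X chromosome, had 7 and 8 counts, too few to show a direction (a fold of 1.16, 0.367 to 3.76). The list of pluripotent and germ cell tumour microRNAs, the miR-302 and miR-371 clusters, was at 0 in both libraries for all 20 of its entries.

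Markers of red blood cells and placenta differed between the libraries in the opposite direction. The red blood cell list had 9647 and 176401 counts (18.6-fold higher with manganese, 18.2 to 18.9). Nearly all of these belonged to miR-486-5p with 9597 and 174822, so the fold of the list is mainly that of 1 entry. The other measured entry of the list, miR-451a, had 50 and 1564 counts and was also higher by the rule of size. All 8 measured entries of the placental 19q13 cluster were higher with manganese, with sums of 71 and 831. Of the melanocyte list, miR-146a-5p had 277 and 334 counts, miR-211-5p had 0 and 1, and miR-204 was at 0. The list of the X-linked miR-106a to miR-363 cluster had 565 and 2042 counts, nearly all from miR-92a arms. Of these, miR-92a-3p (424 and 1905 counts) is also made by chromosome 13. The arm miR-92a-1-5p (141 and 135 counts) comes from the chromosome 13 copy only. The labelled cell type was weakly marked, since the 15 entries of the airway epithelium list had 118 and 230 counts, among them miR-200a-3p with 45 and 70, miR-200b-3p with 32 and 74 and miR-429 with 29 and 60, of which the last pair were higher by the rule of size. The airway basal cell marker miR-205-5p had only 3 and 11 counts and was not measured. The part of these shifts in the lower counts of the miR-506 to miR-514 cluster was not tested.

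**Figure D4:**
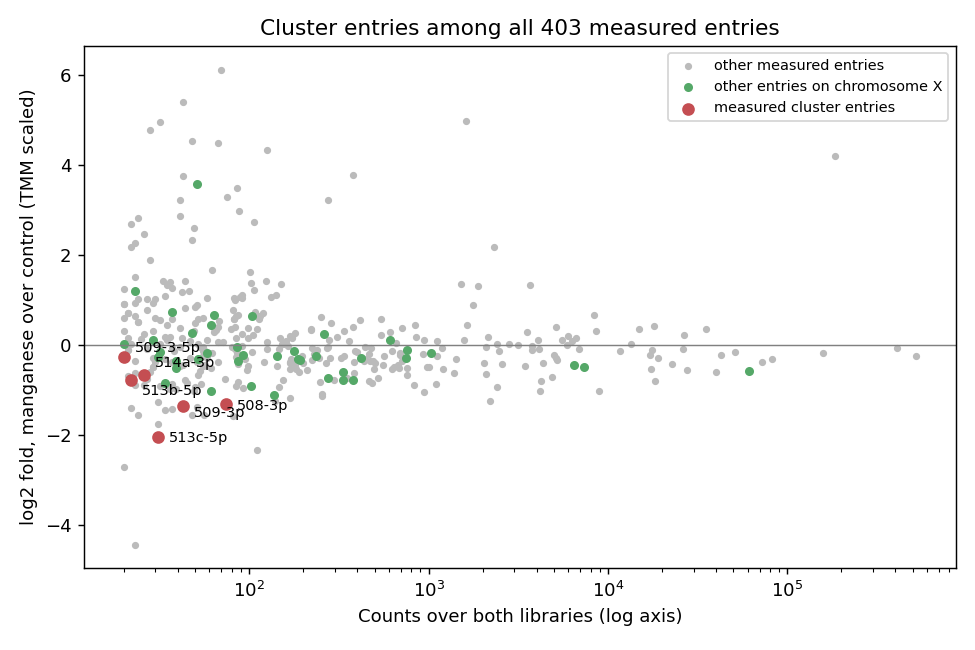
The log2 fold of manganese over control after TMM scaling, on the y axis, against the counts over both libraries, on a log x axis, for all 403 measured entries, with entries on chromosome X and the 6 measured cluster entries coloured. The cluster entries lie at the left, at 74 counts or fewer, with log2 folds from −2.04 to −0.27.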

How the data were processed

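The authors deposited raw counts per mature miRNA entry, 1 column per library, with hg38 as genome build, per the submitters' processing notes. No aligner, counter, annotation or filter is named there. The authors' second deposited table holds a score per entry, equal to the manganese count minus the control count in 2904 of 2904 entries (tolerance 0 counts). The totals were 1064179 and 1091070 counts. Libraries were scaled with TMM factors (edgeR 4.0.16, R 4.3.3) of 1.02 and 0.981 over all entries. Fold intervals were exact conditional binomial intervals, and ratios of folds had conditional odds ratio intervals (scipy 1.17.1, Python 3.11.15). With 1 library per group no p-value is given. The rule of size was tested on simulated data, which held counting error only and no variation between cultures. Scaling by totals, by DESeq2 1.42.0 size factors (both exactly 1) and without the 5 most abundant entries, other filters and rules were alternatives. Every member with a count is named, as are up to 3 abundant entries of some lists. Members, lists and rules were chosen with earlier results of these data known. Hairpin positions came from GENCODE, and 14 of 15 were the same in RefSeq. The remaining hairpin, MIR514B, had no position listed in RefSeq. A position was found for 385 of the 386 measured hsa- entries.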

Additional observations from a re-analysis of the deposited data

How the results depend on the processing

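No paired analysis was possible because each group has 1 library, and no replicate could be left out. The fold of the cluster sum ranged from 0.446, with measured members only, to 0.553, without the 5 most abundant entries in the totals, over 17 alternatives. Of these, 14 kept at least 2-fold, but some of the 14 could not move the fold. The stem miR-507 had 0 counts to leave out, no joined entry held a member, and assumed variation between cultures changes only the interval. The scaling without the 5 most abundant entries raises every log2 fold by 0.19. With an assumed coefficient of variation of 20% between cultures, the interval of the fold was 0.263 to 0.899. When the interval bound had to reach 2-fold, 0 members were lower instead of 3, and a filter of 100 counts leaves no member. Over all entries, the lower calls went from 26 to 15 without the 5 most abundant entries, to 10 with at least 100 counts, to 57 with a rule of 1.5-fold and to 4 with the interval bound. The higher calls went from 52 to 82 with no count filter, to 17 with at least 100 counts and to 26 with the interval bound. The 3p share of the control was 66.7% over measured members, 40.2% without miR-508 and 68.5% without miR-513c, and that of the manganese library was 42.9% without miR-508. These shifts follow from which entries enter, and the cause was not tested further. At 253 counts in all, depth limits every member.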

Other observations

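The counts of the miR-508 arms were looked at after the values were seen, and the 5p arm was too rare to show a direction. The 3p arm had 53 control and 21 manganese counts, while the 5p arm had 1 and 5. The share of the 3p arm was 98.1% of control counts (exact Clopper-Pearson interval 90.1 to 99.95) and 80.8% of manganese counts (60.6 to 93.4), and the intervals overlap. Of the 3 entries seen only in the control library, all were 5p arms, miR-510-5p, miR-514a-5p and miR-514b-5p. The 3 seen only in the manganese library were miR-506-5p, miR-513a-5p and miR-510-3p. The detected arm of miR-510 was thus the 5p arm in the control and the 3p arm with manganese, on 5 and 2 counts. Detection in a single library was common across the whole table. Of its 965 detected entries, the control library held 797 and the manganese library 781. The arms seen in a single library are therefore not shown to be a feature of the cluster.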
